A study of Homo sapiens with 6 samples.

Results

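Transcripts of 33 genes of glycolysis and of the cellular response to low oxygen were followed in macrophage-like THP-1 cells, out of 57316 gene names in the deposited count tables. The genes were taken by symbol from a fixed list and all 33 had a row. Of these, 23 encode glycolytic enzymes, their regulators and the carriers of glucose and lactate, and 10 are HIF1A, its hydroxylases and genes of the hypoxia response. THP-1 is a human monocytic leukaemia cell line. All cells had been exposed to the phorbol ester PMA at 100 ng/ml for 48 h, which gives them macrophage features. They then received recombinant human CXCL10 at 100 ng/ml (3 libraries, replicates 1, 3 and 4) or control solution (3 libraries, replicates 1, 3 and 4) for 24 h. CXCL10 is a chemokine induced by interferons, and its receptor is CXCR3. The labels do not say whether replicates were separate cultures, and the p-values therefore cover the spread among these libraries alone, which may be technical.

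Glycolysis splits glucose into pyruvate and yields ATP without oxygen, and inflammatory macrophages are known to rely on it heavily. HIF1A is the oxygen-regulated subunit of a transcription factor. With oxygen present, prolyl hydroxylases of the EGLN family mark the HIF1A protein for destruction through the VHL ubiquitin ligase. When oxygen is low the protein persists and raises transcription of glucose transporters, glycolytic enzymes and lactate export. HIF1A is therefore controlled largely at the protein level, which RNA counts do not measure.

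Library totals were 34.8 to 41.0 M reads with CXCL10 and 36.0 to 38.9 M reads in controls. Control replicate 4 stood apart from the other libraries, with a first principal component (44.2% of the variance of log2 levels) of 66.6, against -19.6 to -6.11 in the other 5. Its reads also held the largest share from ribosomal protein genes, at 12.8%, against 7.67% to 9.85% in the others. Levels are given in CPM, the read count scaled to the effective library size. For the cell type markers alone it was scaled to the library total. Of 8 macrophage markers 7 had a CPM of at least 1 in all libraries. The remaining one, CD68, had 0 to 5 reads, and 97.6% of its coding bases lie inside exons of another annotated gene, AC016876.2. Of the markers of other cell types, MS4A1 (B cells), CD2 (T cells), HBA1 (erythroid cells) and EPCAM (epithelium) were at 0 reads in all 6 libraries.

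HIF binds the core letters ACGTG or GCGTG of the hypoxia response element. Of the 33 genes, 30 had promoter windows in the RefSeq table (GRCh38.p14; 250 bases before to 50 after each start), 57 windows in all, and SLC2A3, BNIP3L and NDRG1 were not matched. The cores were searched on both strands. A core stood in 38 of the 57 windows, or 66.7%, against 48.4% of all 35116 windows of the table, and 27 of the 30 genes had at least 1 such window (90%, against 52.4% of all genes of the table). The shares per gene are not like for like. The 30 genes had 57 windows, while the 27305 genes of the table had 35116, and more windows per gene give more chances of a match. The shares per window have limits too. Windows of the same gene can overlap, as those of KDM3A did, and the windows were not matched for base composition. On the palindrome CACGTG, which is also the E-box bound by MYC and USF factors, the search matches both strands. It stood in 8 of the 57 windows, against 2548 of all 35116 windows of the table. The windows of 3 genes are shown because each carries the core while their transcripts ranged from abundant (LDHA and PGK1) to scarce (ANKRD37). Capitals mark the cores, joined where matches overlap. They are LDHA (the upstream one of 2 windows, chr11:18394313-18394612, plus strand), PGK1 (chrX:78103998-78104297, plus strand) and ANKRD37 (chr4:185396591-185396890, plus strand).
LDHA: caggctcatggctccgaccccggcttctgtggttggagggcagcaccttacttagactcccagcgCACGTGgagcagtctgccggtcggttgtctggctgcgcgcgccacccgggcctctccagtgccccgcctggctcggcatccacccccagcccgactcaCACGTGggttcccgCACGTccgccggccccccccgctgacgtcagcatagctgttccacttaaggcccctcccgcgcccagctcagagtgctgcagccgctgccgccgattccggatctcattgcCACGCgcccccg
PGK1: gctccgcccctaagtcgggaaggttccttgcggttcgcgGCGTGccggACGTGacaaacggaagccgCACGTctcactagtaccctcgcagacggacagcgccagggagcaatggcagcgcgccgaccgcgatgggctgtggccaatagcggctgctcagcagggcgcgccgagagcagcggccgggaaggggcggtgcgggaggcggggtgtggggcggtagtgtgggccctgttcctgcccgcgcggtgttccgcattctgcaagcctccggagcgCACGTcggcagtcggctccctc
ANKRD37: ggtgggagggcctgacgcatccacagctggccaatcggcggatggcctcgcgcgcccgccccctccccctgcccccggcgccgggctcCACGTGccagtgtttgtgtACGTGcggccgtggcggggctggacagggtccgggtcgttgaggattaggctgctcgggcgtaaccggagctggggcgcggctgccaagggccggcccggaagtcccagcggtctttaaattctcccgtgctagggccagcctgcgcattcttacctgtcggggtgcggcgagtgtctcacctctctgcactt
The LDHA and PGK1 windows each held 4 separate stretches with a core and the ANKRD37 window held 2. A match is a description of letters and not a bound site.

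The comparison of CXCL10 with control asked whether a day with this chemokine goes with other levels of these transcripts. None of the 32 tested members passed. Transcripts of the main glycolytic enzymes lay close to their control levels: PKM averaged 2522 ± 250.1 CPM with CXCL10 and 2559 ± 217 CPM in controls, and ENO1 averaged 1597 ± 216 and 1686 ± 81.5 CPM (SD, n = 3 each). LDHB, a lactate dehydrogenase subunit gene, was the one member whose groups did not overlap, at 13.0 ± 1.06 CPM with CXCL10 and 21.6 ± 9.57 CPM in controls. The quasi-likelihood test of edgeR, adjusted by the Benjamini-Hochberg method over all 16531 genes tested, called 0 members and 0 genes in all (0% of the genes tested). DESeq2 and limma-voom also called 0, while unadjusted p-values under 0.05 numbered 1181 in edgeR, 1211 in DESeq2 and 1182 in limma-voom. In bulk RNA, fewer expressing cells and less RNA per cell cannot be told apart. At an unadjusted p under 0.05, 1 of 32 tested members was counted, LDHB, or 3.12%, against 7.14% of all genes tested (4.65% on the lower side and 2.5% on the higher). Without control replicate 4, LDHB was not counted (unadjusted p = 0.0839 by edgeR). Groups without overlap were found for the same 1 of 32 members, against 12.2% of all genes tested (6.48% on the lower side and 5.76% on the higher). On the TPM scale described below, examined after the data were seen, 4 members had no overlap, SLC2A1, HK1, HK3 and PFKP, all higher with CXCL10. That is 12.5% of the members tested, against 17.3% of all genes tested (14.7% on the higher side).

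The size of change that these data allow was narrow for most members. For 24 of the 32 tested genes, or 75%, the 95% interval of the log2 fold change (CXCL10 over control) lay inside 1.5-fold in either direction, against 46.5% of all genes tested. For 30 of 32 it lay inside 2-fold, with LDHB and ANKRD37 as the exceptions, against 74.4% of all genes tested. The median standard error was 0.15 for the members and 0.19 for all genes tested. The members were not matched to other genes by abundance, so these shares do not show that they are more stable. Among the 23 enzyme and transporter genes the median log2 fold change was -0.0013, and 11 lay above 0 and 12 below. Among the 9 tested hypoxia genes it was -0.013, and 4 lay above 0 and 5 below. The median of all genes tested was 0.023.

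**Figure D1:**
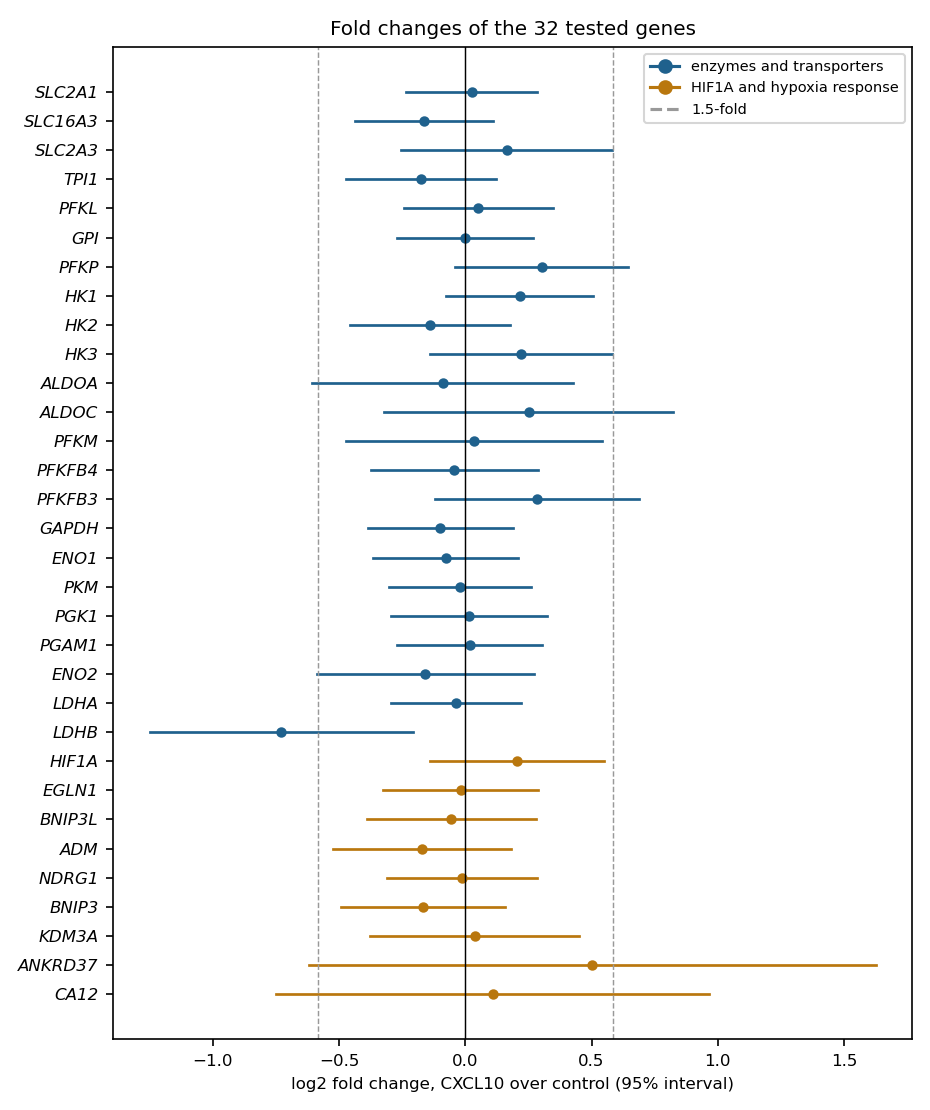
Log2 fold change of CXCL10 over control for the 32 tested genes (points, edgeR fit over all genes) with 95% intervals (lines), for enzymes and transporters in blue and for HIF1A and hypoxia response genes in orange. Dashed lines mark 1.5-fold; LDHB, at -0.73, is the one interval that leaves out 0, and ANKRD37 has the widest.

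Levels are compared between genes in TPM, a transcript share that divides reads by exon length. Lower glycolysis, which turns triose phosphates into pyruvate, held the most abundant members. GAPDH, the dehydrogenase that starts this stage, averaged 1365 ± 112 TPM with CXCL10 and 1319 ± 123 TPM in controls. ENO1, the main enolase, had 937 ± 77.6 and 894 ± 109.7 TPM, and PKM, the pyruvate kinase of most tissues, had 912 ± 38.6 and 837 ± 132 TPM, in the same order of groups. These 3 genes ranked 89, 138 and 145 by mean TPM among all gene names, with the next members being TPI1 at rank 324 and PGK1 at rank 338. At the other end, CA12 had 0.394 ± 0.127 TPM with CXCL10 and 0.325 ± 0.0885 TPM in controls. EGLN3 had 0 to 10 reads per library and did not enter the test. Its 2 libraries at 0 reads, replicate 4 of each group, allow up to 0.173 CPM with CXCL10 and 0.167 CPM in control. This is a limit of 3 fragments or 6 reads over the library total, counting error only.

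**Figure D2:**
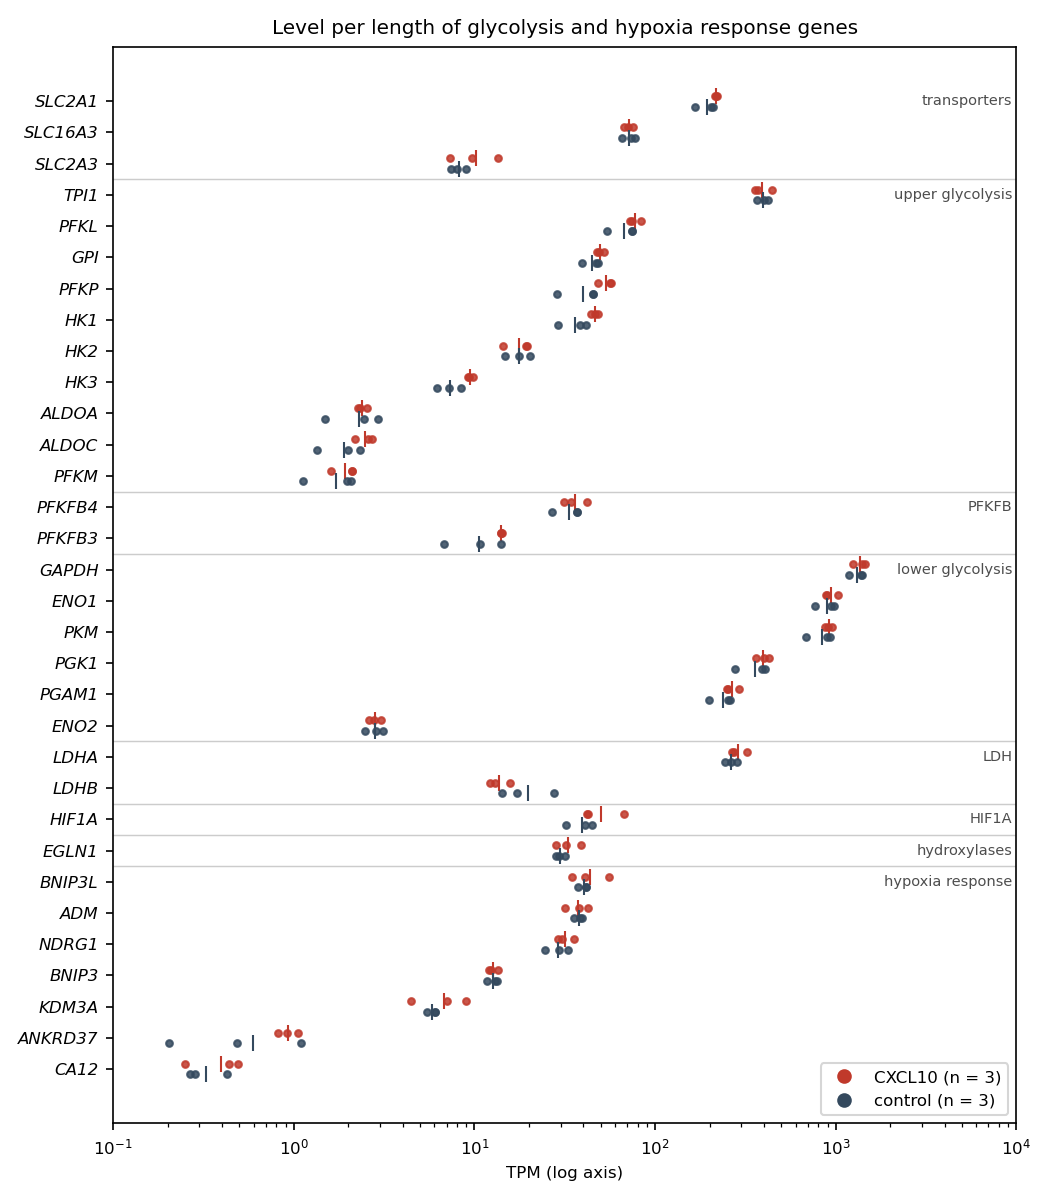
TPM (log axis) of each member except EGLN3 in every library, with CXCL10 libraries in red above control libraries in dark blue and a tick at each group mean. GAPDH is the most abundant at 1365 TPM with CXCL10 while ANKRD37 and CA12 stay below 1 TPM on average, and points of both groups lie close together in most rows. ALDOA and LDHB share most of their coding bases with other gene models, where reads were not counted.

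Counting rules set part of this order. Reads over exons of 2 genes were left out of the counts, and ALDOA and LDHB each share their coding sequence with a read-through gene model. For ALDOA, which encodes the aldolase of most tissues, 93.8% of coding bases lie inside exons of another gene, mainly AC093512.2, and the gene kept 77 to 153 reads per library. For LDHB the share is 93.5%, mainly inside AC010197.2, which itself had 0 to 2 reads per library. ANKRD37 shares 42.6% of its coding bases with exons of UFSP2 on the opposite strand, and GAPDH shares 21.5% with AC006064.4, which had 0 reads. The levels of these 4 genes therefore leave out reads over the shared exons, and neither the ratio of ALDOA to ALDOC nor that of LDHA to LDHB can be read from them. No strand was set in the counting, so reads from the opposite strand may also be included, and the levels are not strict lower bounds.

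Of the member transporters, SLC2A1, which encodes the glucose transporter GLUT1, was the most abundant per length (chromosome 1, 42925375 to 42959176, hg38). It measured 353, 311 and 329.6 CPM in CXCL10 replicates 1, 3 and 4, against 341, 327 and 307 CPM in control replicates 1, 3 and 4. The groups overlapped, and the log2 fold change was 0.025 ± 0.12 (SE, 95% interval -0.24 to 0.29, adjusted p = 0.977 by edgeR). SLC2A3, the gene of the high-affinity transporter GLUT3, supplied 4.48% ± 1.36 of the summed TPM of the pair with CXCL10 and 4.08% ± 0.322 in controls. CXCL10 replicate 4 was its highest library at 26.7 CPM, while the other 5 lay between 15.1 and 18.6 CPM. SLC16A3, which encodes the lactate exporter MCT4, averaged 207 ± 22.9 CPM with CXCL10 and 232 ± 7.86 CPM in controls, and the log2 fold change was -0.16 ± 0.13 (adjusted p = 0.791 by edgeR).

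Among the upper steps, hexokinases trap glucose in the cell by phosphorylation. HK1, the broadly expressed form, held most of the hexokinase level per length. Its share of the summed TPM of HK1, HK2 and HK3 was 66.4%, 60.7% and 62.2% in CXCL10 replicates 1, 3 and 4, against 59.4%, 60.1% and 58.0% in control replicates 1, 3 and 4. All CXCL10 values lay above all control values, with a margin of less than 1 percentage point between the nearest pair. HK2, the inducible form and a known HIF target, had shares of 20.4%, 26.6% and 25.1% with CXCL10, against 27.5%, 29.4% and 29.6% in controls, again without overlap. As single genes neither passed: HK1 measured 99.7, 84.1 and 98.9 CPM with CXCL10, against 83.4, 88.5 and 71.5 CPM in controls, and its log2 fold change was 0.22 ± 0.14 (adjusted p = 0.754 by edgeR). HK2 measured 29.5, 35.5 and 38.5 CPM with CXCL10, against 37.2, 41.6 and 35.2 CPM in controls, and the log2 fold change was -0.14 ± 0.15 (adjusted p = 0.850 by edgeR). HK3, the myeloid form, took 12.8% ± 0.325 with CXCL10 and 12.02% ± 1.32 in controls.

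Phosphofructokinase commits sugar to glycolysis, and its level came almost wholly from the liver-type gene PFKL and the platelet-type gene PFKP. PFKP supplied 39.99%, 39.1% and 42.1% of the summed TPM of the 3 genes in CXCL10 replicates 1, 3 and 4, against 37.2%, 37.2% and 34.1% in control replicates 1, 3 and 4. PFKL supplied 58.5%, 59.5% and 56.3% with CXCL10, against 61.2%, 61.1% and 64.5% in controls. The groups did not overlap for either share. The muscle-type gene PFKM stayed at 1.31% to 1.57% with CXCL10 and 1.34% to 1.70% in controls. PFKP itself had 108, 80.6 and 101 CPM with CXCL10, against 86.8, 85.3 and 62.5 CPM in controls, where replicate 4 was the lowest of all 6 libraries. Its log2 fold change of 0.30 ± 0.16 was the highest of the enzymes (adjusted p = 0.702 by edgeR), and it was 0.17 without control replicate 4.

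These isozyme shares are a description with no test. Outside the aldolase and lactate dehydrogenase pairs, which overlapping gene models hide, 6 families were read, the EGLN hydroxylases included. Shares without overlap between groups were found in 2 of them, hexokinase and phosphofructokinase. A share within a family is not one of the features in the test over all genes, so no background share stands beside it. Shares of a family add up to a whole. The higher PFKP and lower PFKL shares are therefore not separate observations, and those of HK1 and HK2 largely are not either. With 3 libraries per group a permutation test could give no p under 0.1, and none was run.

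**Figure D3:**
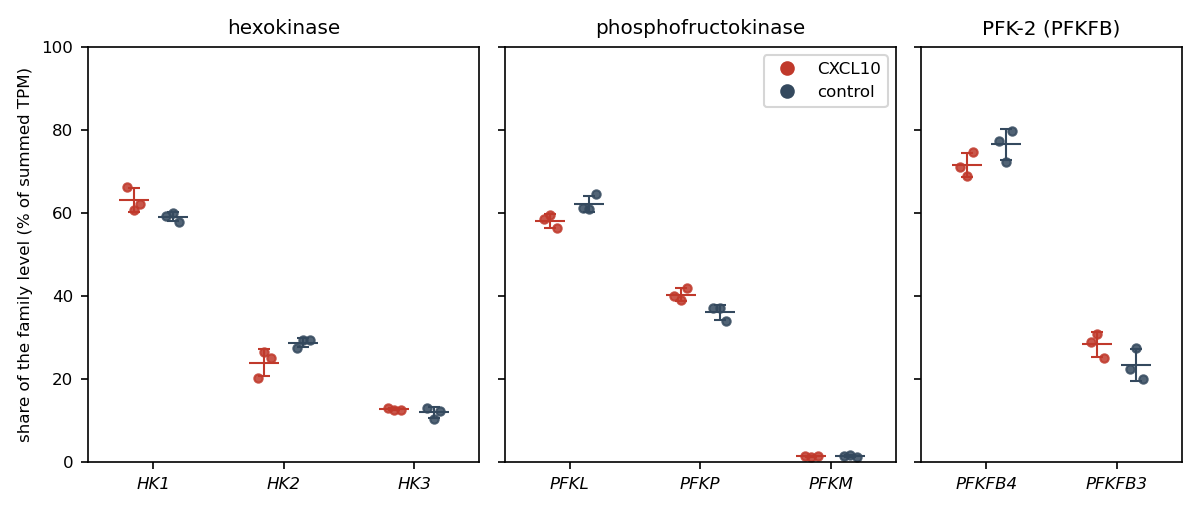
Share of each isozyme in the summed TPM of its family, in percent, for hexokinases, phosphofructokinases and PFKFB enzymes, with CXCL10 (red) left of control (dark blue). Points are libraries and bars are mean ± SD (n = 3); HK1 and PFKP shares were above, and HK2 and PFKL shares below, all control values, while PFKFB shares overlapped.

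PFKFB enzymes make and remove the activator of phosphofructokinase, and PFKFB3 and PFKFB4 are both known as hypoxia-inducible. PFKFB4 was the more abundant, with 71.6% ± 2.94 of the summed TPM of the pair with CXCL10 and 76.6% ± 3.82 in controls. It measured 71.1, 57.7 and 84.0 CPM with CXCL10, against 78.0, 76.7 and 64.5 CPM in controls, and the log2 fold change was -0.044 ± 0.15 (adjusted p = 0.961 by edgeR). PFKFB3 measured 28.99, 26.0 and 28.3 CPM with CXCL10, against 22.8, 29.3 and 16.3 CPM in controls. The CXCL10 values lay between the lowest and the highest control, and the log2 fold change was 0.28 ± 0.19 (adjusted p = 0.765 by edgeR). Without control replicate 4 it was 0.095, and without control replicate 3 it was 0.52.

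The remaining enzymes of the upper stage were GPI, the isomerase of glucose phosphate, the aldolases and TPI1. TPI1, triose phosphate isomerase, was the most abundant gene of the upper stage per length. It measured 404, 291 and 326 CPM with CXCL10, against 376, 389 and 389 CPM in controls. Both the highest and the lowest values came from CXCL10 libraries, and the log2 fold change was -0.18 ± 0.14 (adjusted p = 0.796 by edgeR). GPI averaged 171 ± 15.9 CPM with CXCL10 and 172 ± 6.54 CPM in controls. ALDOC, the brain-type aldolase, had 46 to 92 reads per library.

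In the lower stage GAPDH measured 1186, 899 and 1086 CPM in CXCL10 replicates 1, 3 and 4, against 1162, 1125 and 1109 CPM in control replicates 1, 3 and 4. Its log2 fold change was -0.099 ± 0.13 (95% interval -0.38 to 0.19, adjusted p = 0.887 by edgeR). PGK1 and PGAM1, which carry out the next steps to phosphoglycerate, had log2 fold changes of 0.016 and 0.017. ENO1 and PKM had -0.078 and -0.021, and ENO2, the neuron-type enolase, supplied 0.299% ± 0.0103 of enolase TPM with CXCL10 and 0.315% ± 0.0101 in controls. Several of these genes have pseudogene copies, and a read with more than 1 mapping place was not counted. The 62 rows named as GAPDH pseudogenes held 388 reads over all 6 libraries, against 245965 for GAPDH.

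Lactate dehydrogenase interconverts pyruvate and lactate, and LDHA is the subunit that HIF is known to raise. LDHA measured 543, 589.6 and 538 CPM with CXCL10, against 550.3, 585 and 579 CPM in controls. The groups overlapped, and the log2 fold change was -0.037 ± 0.12 (95% interval -0.29 to 0.22, adjusted p = 0.959 by edgeR). LDHB (chromosome 12, 21635342 to 21757857) measured 12.2, 14.2 and 12.6 CPM with CXCL10, against 17.8, 14.5 and 32.5 CPM in controls. Control replicate 4 was far above the rest, and CXCL10 replicate 3 lay just below control replicate 3. The log2 fold change was -0.73 ± 0.24 (95% interval -1.25 to -0.21, unadjusted p = 0.00974, adjusted p = 0.683 by edgeR). Without control replicate 4 it was -0.31 (adjusted p = 0.997 by edgeR), and over the 6 fits without 1 library it ran from -0.93 to -0.31. When low counts were not filtered, edgeR called the gene (log2 fold change -0.73, adjusted p = 0.0237). These values rest on 448 to 1086 reads per library. Exons of AC010197.2 cover 33.4% of the exon length of LDHB but, with other gene models, most of its coding bases, so the counted reads come largely from outside the coding sequence.

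HIF1A (chromosome 14, 61695513 to 61748259) measured 73.9, 105 and 70.2 CPM with CXCL10, against 72.5, 77.9 and 65.4 CPM in controls. CXCL10 replicate 3 was the highest library, and the other 5 lay between 65.4 and 77.9 CPM. The log2 fold change was 0.20 ± 0.16 (95% interval -0.14 to 0.55, adjusted p = 0.795 by edgeR), and it was 0.0098 without CXCL10 replicate 3. Of the hydroxylases, EGLN1, the main oxygen sensor of HIF, measured 69.8, 85.3 and 76.2 CPM with CXCL10, against 70.8, 72.4 and 91.1 CPM in controls, and its log2 fold change was -0.018 ± 0.14 (adjusted p = 0.987 by edgeR). EGLN1 made up 93.6% ± 1.52 of the summed TPM of EGLN1, EGLN2 and EGLN3 with CXCL10 and 95.6% ± 2.26 in controls.

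Hypoxia response genes were expressed over a wide range. BNIP3L, a mitophagy receptor and the most abundant of them per length, measured 48.5, 69.3 and 55.5 CPM with CXCL10, against 53.9, 58.9 and 67.3 CPM in controls (log2 fold change -0.055 ± 0.16, adjusted p = 0.953 by edgeR). Its relative BNIP3 averaged 21.7 ± 1.65 CPM with CXCL10 and 24.3 ± 3.15 CPM in controls. NDRG1, a stress-response gene, averaged 101 ± 13.9 CPM with CXCL10 and 102 ± 8.24 CPM in controls, and ADM, which encodes the vasodilator peptide adrenomedullin, averaged 28.1 ± 5.23 and 31.7 ± 3.32 CPM in the same order. KDM3A, an oxygen-dependent histone demethylase, had its lowest and highest values in CXCL10 libraries, at 20.01 and 35.9 CPM, around controls of 25.3 to 31.7 CPM. ANKRD37, whose promoter letters are shown above, had 23 to 31 reads per CXCL10 library and 6 to 33 reads per control library, with a log2 fold change of 0.50 ± 0.52. CA12, a membrane carbonic anhydrase, had 22 to 40 reads per library. The 95% intervals of both genes reached past 1.5-fold in each direction.

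The libraries within a group differed from each other. CXCL10 replicate 1 was the highest library for 12 of the 23 enzyme and transporter genes (52.2%, against 17.4% of all genes tested), and CXCL10 replicate 3 was the lowest for 9 of them (39.1%, against 19.5%). Control replicate 4 was the lowest for 10 (43.5%, against 29.3%), and control replicates 1 and 3 were the lowest for 0. The median log2 deviation of the 23 genes from the mean of all libraries was 0.12, -0.14 and 0.0047 in CXCL10 replicates 1, 3 and 4, and 0.059, 0.053 and -0.11 in control replicates 1, 3 and 4. The hypoxia genes did not follow this order, at -0.074, 0.16 and 0.12 with CXCL10 and -0.077, -0.038 and 0.18 in controls. The trend of log2 CPM with exon length also differed between these libraries, from 0.071 per doubling of length in CXCL10 replicate 3 to -0.065 in control replicate 4. Its part in the result was not tested beyond removing the trend, after which the enzyme median was -0.029 and still no member was called.

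**Figure D4:**
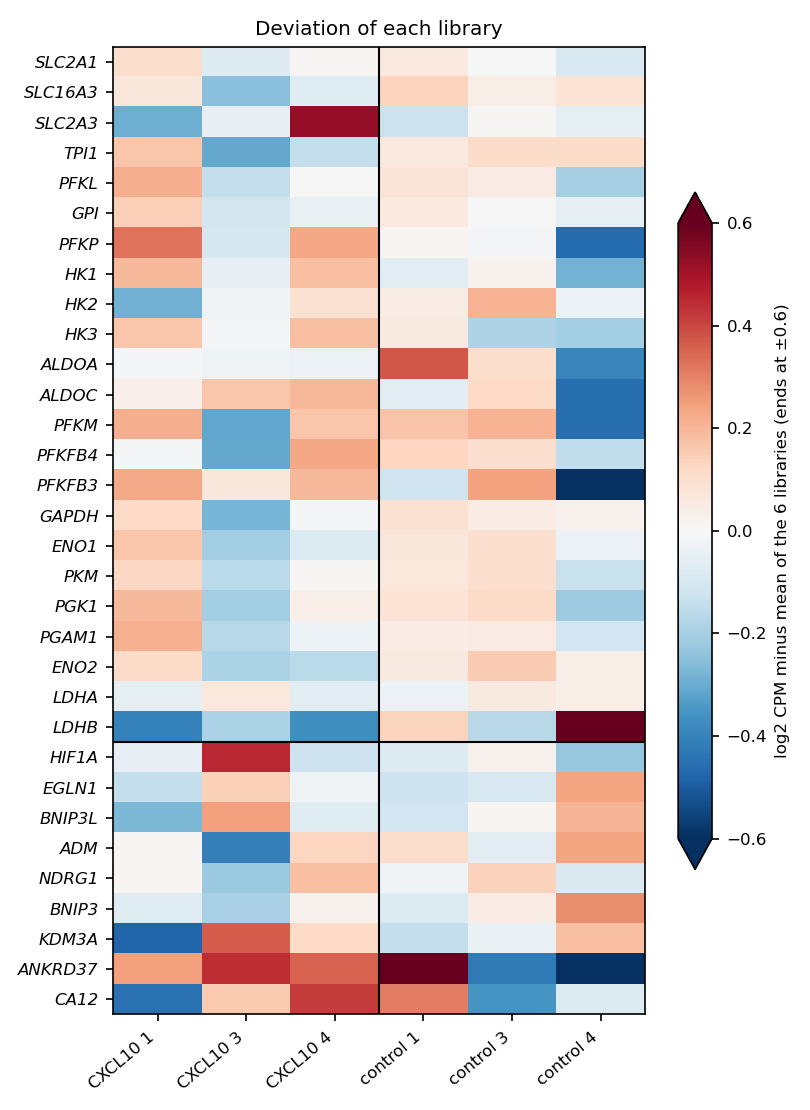
Log2 CPM of each tested gene minus its mean over the 6 libraries, CXCL10 libraries left of the vertical line and controls right of it, enzymes above the horizontal line and hypoxia genes below. Red is above and blue below the mean; most enzymes are red in CXCL10 replicate 1 and blue in CXCL10 replicate 3, and LDHB stands out in control replicate 4.

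Of 22 tested genes of other glycolytic and side-branch steps, 0 were higher and 1 lower at an unadjusted p under 0.05 (4.55%, against 7.14% of all genes tested), and the median log2 fold change was 0.033. The count was 0 without control replicate 1, 2 without control replicate 4 and 4 without CXCL10 replicate 1. The gene was SLC2A6, a lysosomal sugar transporter of macrophages, with 40.2, 36.9 and 31.0 CPM with CXCL10, against 49.7, 45.3 and 42.9 CPM in controls. Its log2 fold change was -0.35 ± 0.14 (adjusted p = 0.683 by edgeR), and it was -0.26 without CXCL10 replicate 4. GPD2, a mitochondrial dehydrogenase of glycerol phosphate, had 9.38, 15.5 and 10.7 CPM with CXCL10, against 9.00, 8.55 and 9.03 CPM in controls (log2 fold change 0.42 ± 0.20, adjusted p = 0.694 by edgeR). Without CXCL10 replicate 3 its log2 fold change was 0.18. For TALDO1, transaldolase of the pentose phosphate branch, the log2 fold change was -0.28 ± 0.14 (adjusted p = 0.702 by edgeR).

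Of 16 tested regulators of the HIF pathway, 0 were higher and 3 lower at an unadjusted p under 0.05 (18.8%, against 7.14% of all genes tested), and 5 had groups without overlap, 1 higher and 4 lower (31.2%, against 12.2% of all genes tested). The median log2 fold change was -0.12. Leaving out either CXCL10 replicate 3 or CXCL10 replicate 4 gave a count of 1. The 3 genes encode small subunits of the VHL ubiquitin ligase. VHL and CUL2, also subunits of that ligase and in this list, lay on the other side of 0. Their log2 fold changes were 0.32 ± 0.21 (adjusted p = 0.765 by edgeR) and 0.14 ± 0.16 (adjusted p = 0.867), and their groups overlapped. Both 95% intervals included 0 (-0.14 to 0.77 for VHL and -0.20 to 0.48 for CUL2). VHL had 74.9, 63.4 and 83.1 CPM with CXCL10, against 70.5, 70.5 and 36.8 CPM in controls, with control replicate 4 the lowest. CUL2 had 18.2, 25.6 and 21.9 CPM with CXCL10, against 21.3, 19.05 and 19.4 CPM in controls. No direction of the ligase as a whole is read from these values. RBX1, the RING subunit of the ligase, had 92.7, 74.0 and 81.0 CPM with CXCL10, against 106, 102 and 123 CPM in controls (log2 fold change -0.41 ± 0.14, adjusted p = 0.683 by edgeR). ELOB, elongin B, which overlapped between groups, had 214, 149 and 164 CPM with CXCL10, against 215, 197 and 403 CPM in controls (-0.63 ± 0.23, adjusted p = 0.683), and the value was -0.23 without control replicate 4. ELOC, elongin C, had 199, 156 and 178 CPM with CXCL10, against 206, 210.4 and 238 CPM in controls (-0.30 ± 0.13, adjusted p = 0.684). Control replicate 4, the library with the most ribosomal protein reads, was the highest for RBX1, ELOB and ELOC. The part of that library in the result was not tested for RBX1 and ELOC beyond leaving it out (-0.32 and -0.22). When low counts were not filtered, ELOB was called by edgeR (adjusted p = 0.0146).

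Of 32 tested genes of the wider hypoxia response, 0 were higher and 0 lower at an unadjusted p under 0.05 by edgeR (0%, against 7.14% of all genes tested), and the median log2 fold change was 0.038. Without CXCL10 replicate 1 the count was 3. Those with the lowest p-values were PPFIA4, a liprin with 13.5, 12.8 and 14.7 CPM with CXCL10, against 11.95, 12.7 and 8.64 CPM in controls (log2 fold change 0.30 ± 0.18, adjusted p = 0.734 by edgeR), WSB1, a ubiquitin ligase adaptor (0.25 ± 0.16, adjusted p = 0.754), and KDM4C, a histone demethylase (0.23 ± 0.17, adjusted p = 0.781).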

How the data were processed

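Polyadenylated RNA was sequenced from 3 CXCL10 and 3 control libraries made with a stranded kit. The deposited files hold raw read counts per gene name, produced by the authors using featureCounts 2.0.6 and GENCODE 30 exons, per the file headers. Trim Galore, STAR and the build hg38 come from the submitters' processing notes; the sources used here give no version of either tool. Per the file headers, both mates were counted, no strand was set, and reads over 2 genes or mapped to several places were left out. This lowers genes with overlapping models or near-identical copies and mixes opposite strands. Of 57316 names, 150 lay on more than 1 chromosome. No libraries were identical or agreed within sampling noise. Totals were 34.8 to 41.0 M reads.

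For the test, edgeR 4.0.16 (R 4.3.3) ran filterByExpr, TMM scaling and a quasi-likelihood model of group alone, and p-values were adjusted by Benjamini-Hochberg over every tested gene (threshold 0.05). Each standard error is the fold change over the root of its F statistic. CPM is TMM-scaled. TPM was computed here from counts and exon lengths and used for levels between genes, isozyme shares and 1 check of overlap. The test was checked on simulated counts. These held no outlying library and no trend with exon length, so the check does not cover such features of the real libraries. Alternatives, with limma 3.58.1 and DESeq2 1.42.0 among them, are given in the closing section. Coding overlaps used the coding exons of GENCODE 29 on the same build against the exons in the count files. Replicates of equal number were not paired by the labels.

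The genes and lists were chosen with earlier results of these data known. Values in every library are given for members with an unadjusted p under 0.05 or no overlap between groups, for the most abundant gene of each role, and for HIF1A, HK2, PFKFB3, LDHA and SLC2A1. HK1, PFKP, KDM3A and SLC2A3 were added after their values were seen. From each further list up to 3 genes with the lowest p-value are named. Of the listed symbols 1 is not analysed here.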

Additional observations from a re-analysis of the deposited data

How the results depend on the processing

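Of the alternatives to the edgeR fit, 10 changed 1 or 2 choices with all libraries kept, 1 also left out control replicate 4, 2 changed the threshold, and 6 left out 1 library each. No member was called in any of them except LDHB with no filter on low counts. That setting called 137 genes in all, 1 of them an enzyme gene, and counted 2049 genes at an unadjusted p under 0.05, against 1181. At that p, 590 genes were counted once control replicate 4 and the length trend were both taken out, and 626 to 2103 without 1 library (2103 without CXCL10 replicate 1, 626 without CXCL10 replicate 3, 649 without CXCL10 replicate 4 or control replicate 4). Enzyme and transporter genes at an unadjusted p under 0.05 numbered 2 with library size only, 2 with no filter, 0 to 3 without 1 library, and 0 once control replicate 4 and the length trend were both taken out. In the lists of other genes the counts were 3 with no filter and 2 with DESeq2 for glycolysis and side branches (0 to 4 without 1 library), 5 with no filter for HIF regulators (1 to 3 without 1 library), and 1 once control replicate 4 and the length trend were both taken out for hypoxia-response genes (0 to 3 without 1 library). Enzyme medians ran from -0.077 to 0.077 and hypoxia medians from -0.033 to 0.077 without 1 library. Members without overlap between groups numbered 2 in CPM by library size only (HK1 and HK3, both higher) and 4 in TPM (SLC2A1, HK1, HK3 and PFKP, all higher), against 13.7% and 17.3% of all genes tested on these scales, which were added after the data were seen. With the gene length trend removed, the log2 fold change changed sign for SLC2A1 (-0.0032), PFKL (-0.028), PFKM (-0.029), PGK1 (-0.024), KDM3A (-0.10). With the replicate block and the length trend removed, the log2 fold change changed sign for SLC2A1 (-0.0055), PFKL (-0.042), PFKM (-0.031), PGK1 (-0.032), KDM3A (-0.12). With control replicate 4 and the length trend both taken out, the log2 fold change changed sign for SLC2A1 (-0.024), PFKL (-0.095), PFKM (-0.20), PGK1 (-0.10), EGLN1 (0.048), BNIP3L (0.040). With library size only, the log2 fold change changed sign for GPI (0.075), PFKFB4 (0.029), PKM (0.053), LDHA (0.044), EGLN1 (0.069), BNIP3L (0.032), NDRG1 (0.062). With at least 1 CPM in 3 libraries, the log2 fold change changed sign for GPI (0.0010). Without 1 library the sign changed for SLC2A1 (-0.024 to 0.077), SLC2A3 (-0.11 to 0.33), GPI (-0.079 to 0.059), PFKL (-0.052 to 0.14), PFKM (-0.15 to 0.20), ALDOA (-0.27 to 0.099), PFKFB4 (-0.18 to 0.092), GAPDH (-0.19 to 0.013), PGK1 (-0.082 to 0.13), PGAM1 (-0.095 to 0.11), ENO1 (-0.19 to 0.011), PKM (-0.091 to 0.060), EGLN1 (-0.089 to 0.11), CA12 (-0.097 to 0.32), BNIP3L (-0.20 to 0.057), NDRG1 (-0.11 to 0.094), KDM3A (-0.15 to 0.24). None of these values was called, and the cause was not tested. The replicate block gave 0 calls and 1323 genes at an unadjusted p under 0.05. Deviations of equal-numbered libraries from their group means correlated at 0.026, 0.019 and -0.051. The highest correlations were between unequal numbers, at 0.064 for CXCL10 replicate 4 with control replicate 1 and 0.043 for CXCL10 replicate 3 with control replicate 4. All were low, and the numbers were not taken as pairs. ANKRD37, CA12 and EGLN3 had at most 40 reads per library, and halving the counts left the first 2 uncalled (unadjusted p = 0.278 and 0.783 by edgeR, against 0.352 and 0.790).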

Other observations

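Gene models that share exons also touched genes outside the members. MIF, a cytokine gene that hypoxia is known to raise, was listed at 0 reads in all 6 libraries, and 100% of its coding bases lie inside exons of other annotated genes. EPAS1, which encodes the HIF2 alpha subunit, had 8.17, 9.05 and 7.35 CPM with CXCL10, against 6.37, 5.56 and 6.996 CPM in controls, without overlap. Its log2 fold change was 0.38 ± 0.18 (unadjusted p = 0.054, adjusted p = 0.694 by edgeR). EGLN2, the remaining prolyl hydroxylase of HIF, had 5.50, 4.24 and 4.07 CPM with CXCL10, against 3.39, 4.10 and 1.55 CPM in controls (0.60 ± 0.30, adjusted p = 0.702 by edgeR), and control replicate 4 was its lowest library. EPAS1 and EGLN2 were chosen after their values were seen.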
